A study of Mus musculus with 14 samples.

Results

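The 6 genes described here encode the alarmin IL-33 (Il33), its receptor ST2 (Il1rl1), the shared co-receptor IL-1RAcP (Il1rap) and the first signalling proteins behind them, Myd88, Irak4 and Traf6. They were chosen by symbol, 6 of the 24411 gene symbols in each count table, because ligand and receptor were higher where MC-38 cells had received NET chromatin, the DNA and histones of neutrophil extracellular traps (NETs). That culture comparison picked the members, so it is given for them as levels and fold changes with no test. The stated reason for the choice names no tumour comparison, and those comparisons were tested. Earlier results of these data were known when the members were chosen.

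MC-38 is a mouse colon cancer line, and its gene expression was measured by RNA sequencing in 14 libraries. In culture there were 3 libraries of untreated cells and 3 of cells given NET chromatin made from neutrophils in vitro. From lung tumours, MC-38 cells expressing green fluorescent protein had been flow-sorted on day 30, and each of 4 host groups is represented by 2 libraries. These were WT hosts without surgery, WT hosts with laparotomy on days 0 and 10, PAD4 KO hosts without surgery, and PAD4 KO hosts with laparotomy on the same days. PAD4 is the enzyme that citrullinates histones during NET release. The knockout was in the host, and the tumour cells carry the label WT in all 4 groups. The dose and duration of the NET chromatin and the age and sex of the hosts are not stated in the labels. Whether replicates were independent cultures or mice is not stated either, so a p-value here reflects only how far these libraries spread, which may be technical.

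IL-33 is a nuclear cytokine of epithelial, endothelial and stromal cells that acts as an alarm signal once it leaves a damaged or stressed cell. It binds ST2, which pairs with IL-1RAcP, and the assembled receptor recruits MyD88, IRAK4 and TRAF6 and so activates NF-kB and MAP kinases. ST2 is best known on mast cells, type 2 innate lymphoid cells and regulatory T cells, and it is also made as a soluble form that captures IL-33. Counts per gene do not tell the membrane form from the soluble one. Mast-cell and neutrophil proteases can trim IL-33 to more active forms, and apoptotic caspases can inactivate it.

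Il33 lies at chr19:29925114-29960718 on the plus strand and Il1rl1 at chr1:40429570-40465415 on the plus strand (GENCODE annotation of GRCm38). RefSeq's promoter table (GRCm38.p6) holds 2 promoters for each of these genes and 1 for each of the other members. The windows shown run from 250 bases before a start site to 50 after it, and those of the ligand and the receptor are printed because these genes had the largest differences in culture. Capitals mark matches to GATAA, the core of GATA factor sites, which reads TTATC when it lies on the reverse strand. Capitals also mark TGACG, the core of the cyclic-AMP response element. The upstream and downstream starts of Il33 have the windows chr19:29924863-29925162 and chr19:29945540-29945839, and those of Il1rl1 have chr1:40429320-40429619 and chr1:40439379-40439678.
Il33 upstream start: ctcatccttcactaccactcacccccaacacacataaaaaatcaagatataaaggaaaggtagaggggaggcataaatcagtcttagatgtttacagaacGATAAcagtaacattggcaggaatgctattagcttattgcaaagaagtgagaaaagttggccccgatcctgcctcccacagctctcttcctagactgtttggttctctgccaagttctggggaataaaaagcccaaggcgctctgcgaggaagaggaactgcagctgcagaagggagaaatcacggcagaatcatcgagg
Il33 downstream start: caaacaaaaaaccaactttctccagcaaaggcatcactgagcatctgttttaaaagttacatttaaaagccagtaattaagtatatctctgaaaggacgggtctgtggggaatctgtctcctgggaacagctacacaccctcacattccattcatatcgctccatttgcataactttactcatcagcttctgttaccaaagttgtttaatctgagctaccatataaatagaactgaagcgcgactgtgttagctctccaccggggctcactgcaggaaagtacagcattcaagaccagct
Il1rl1 upstream start: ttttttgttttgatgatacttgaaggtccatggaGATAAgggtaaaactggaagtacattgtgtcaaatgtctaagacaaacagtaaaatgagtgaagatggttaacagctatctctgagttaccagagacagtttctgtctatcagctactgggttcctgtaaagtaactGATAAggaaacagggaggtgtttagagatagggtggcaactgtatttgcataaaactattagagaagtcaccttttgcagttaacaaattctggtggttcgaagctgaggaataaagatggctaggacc
Il1rl1 downstream start: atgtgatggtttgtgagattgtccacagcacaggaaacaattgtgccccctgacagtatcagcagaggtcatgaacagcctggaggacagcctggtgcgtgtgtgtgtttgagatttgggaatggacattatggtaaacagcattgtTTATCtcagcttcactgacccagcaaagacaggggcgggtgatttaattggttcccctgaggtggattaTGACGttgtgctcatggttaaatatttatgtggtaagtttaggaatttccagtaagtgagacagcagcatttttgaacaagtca

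The upstream Il33 window holds 1 GATAA, whose first base is at position -150 from the start site. The upstream Il1rl1 window holds 2, at -216 and -79, and the downstream one holds TTATC at -103 and TGACG at -34. The downstream Il33 window holds no match to any motif searched. Of all 32851 RefSeq promoter windows of this length, 25.4% hold GATAA and 20.8% hold TGACG on either strand. The other motifs searched on both strands were TGANTCA (AP-1, in 7.81% of all windows), GGG and CC parted by any 5 bases (NF-kB, 50.8%), TTCNNNGAA (STAT, 8.30%) and GAAA repeated after any 2 bases (ISRE, 3.44%). No match to these 4 was present in the 4 windows, which says only that the letters are not there, and no matches overlapped. The counts do not show which start site was used.

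Depth was 6.39 to 20.6 M gene counts in culture libraries and 10.8 to 31.3 M in tumour libraries. An epithelial and colon marker list of 10 genes summed to 0.990 to 1.93 CPM (reads per 1000000 gene counts) in cultures of these colon cancer cells. In tumour libraries the sum was 2.05 to 32.6 CPM. It was highest in WT control library 2, with Krt19 at 11.5 CPM and Cdh1 at 8.11 CPM. The part of host cells in the tumour sums was not tested. The intestinal transcription factor gene Cdx2 was at 0 in every library of 5 groups and had 2 counts in the remaining one, culture with NET chromatin. Markers of host cells differed between tumour libraries of one group. The lung epithelium list (13 genes) summed to 156 and 882 CPM in the WT control libraries 1 and 2, and to 47.8 and 443 CPM in the PAD4 KO control libraries 1 and 2. A pan-leukocyte list (10 genes) summed to 196 and 1112 CPM in the WT control libraries and to between 131 and 225 CPM in the other 6.

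In culture, ligand and receptor were both far higher with NET chromatin, while the co-receptor and the signalling members differed little or were lower. Il33 was at 0.321, 0.392 and 0.457 CPM in the control cultures (3, 5 and 6 counts) and at 12.2, 14.7 and 15.2 CPM with NET chromatin (100, 87 and 297 counts). The groups lie far apart, and the control level is that of a few reads per library. The fitted difference was 5.12 ± 0.24 (log2 fold change ± SE), a 34.7-fold higher level with NET chromatin. Because the control counts are low, the ratio of the summed counts is also given: it was 36.1, with an exact 95% interval of 21.3 to 66.5 that covers counting error only. Il33 passed the filter on low counts in culture through the NET libraries, so it had to differ between the groups.

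Il1rl1 was already well expressed without treatment, at 105, 101 and 94.6 CPM, and stood at 495, 534 and 494 CPM with NET chromatin. No control library came near a treated one. The log2 fold change was 2.34 ± 0.07, or 5.06-fold.

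Il1rap, the subunit that ST2 needs to signal, was at 24.4, 21.8 and 26.0 CPM in control cultures and 20.4, 21.4 and 20.9 CPM with NET chromatin. All 3 treated libraries were below the lowest control by a narrow margin, with a log2 fold change of -0.21 ± 0.10. Myd88, the adaptor that links the receptor to the IRAK kinases, was at 41.7, 46.9 and 41.2 CPM without and 45.0, 44.8 and 42.4 CPM with NET chromatin. Its groups overlapped, and its log2 fold change of 0.02 ± 0.08 became -0.14 when libraries were scaled to their totals, a scaling that moved the median of all genes to -0.16.

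Irak4, the kinase recruited by MyD88, was at 13.4, 12.2 and 17.0 CPM in controls and 9.18, 6.74 and 9.49 CPM with NET chromatin. The treated libraries were all lower, by -0.70 ± 0.15 on the log2 scale. Traf6, the ubiquitin ligase that passes the signal to TAK1, was at 48.1, 40.4 and 46.4 CPM against 34.2, 30.3 and 31.7 CPM, a log2 fold change of -0.48 ± 0.09. Thus 5 of the 6 members had groups that did not overlap, 2 higher and 3 lower with NET chromatin. Groups did not overlap for 60.1% of all 11753 genes tested. Of these genes, 54.1% passed an adjusted p of 0.05 (edgeR), 26.3% higher and 27.8% lower, and the median log2 fold change of the members was -0.09 beside 0.00 for all genes. Since the comparison chose the members, nothing is read from their share.

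**Figure D1:**
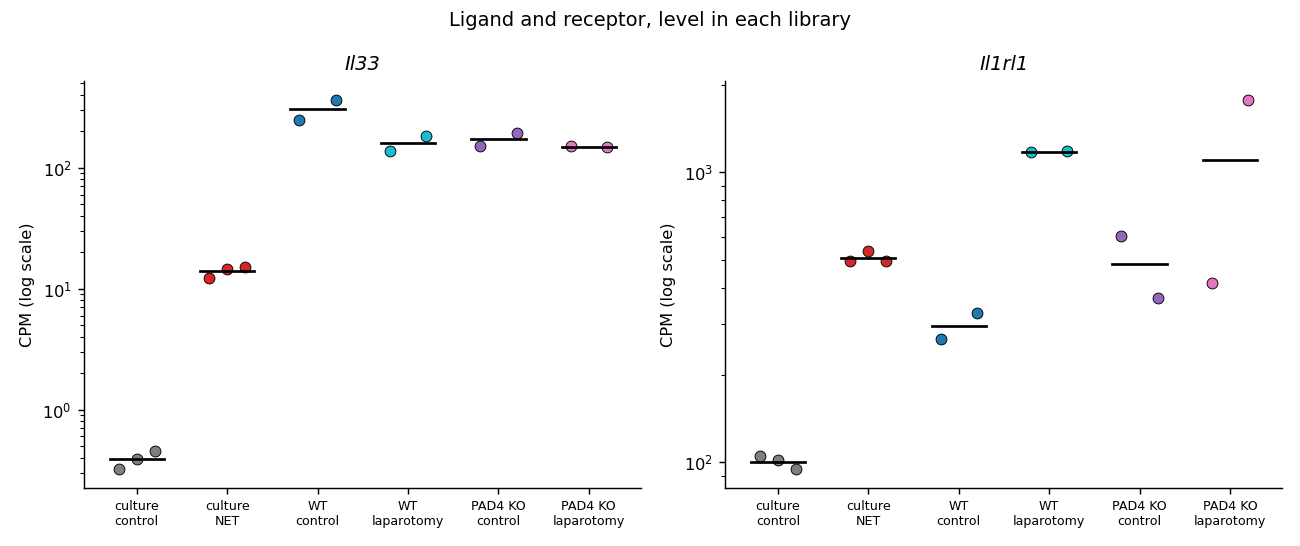
Level of Il33 (left) and Il1rl1 (right) in each of the 14 libraries, in CPM on a log axis, with TMM factors of the culture or the tumour fit. Points are libraries and bars are group means; Il33 runs from 0.321 CPM in a control culture to 367 CPM in a WT control tumour, and the PAD4 KO laparotomy libraries differ 4.28-fold in Il1rl1.

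Leukocyte markers were also higher in the treated cultures. The pan-leukocyte list summed to 9.15 ± 0.31 CPM (SD, n = 3) in controls and 25.8 ± 4.17 CPM with NET chromatin, but 4 of its 6 tested genes passed the filter through the NET libraries only, and the other 2 were higher (edgeR), beside 26% of all genes treated the same way. The neutrophil list (9 genes measured) summed to 0.304 to 0.942 CPM and 8.57 to 11.3 CPM. Retnlg and Ngp were at 0 in all 6 libraries, and S100a9 and Csf3r at 0 in the controls. Mmp8, which passed the filter through the NET libraries only, averaged 0.0254 and 6.50 CPM of these sums. The monocyte and macrophage list summed to 80.7 to 100 and 143 to 168 CPM, with C1qa and C1qc at 0 throughout. Most of these sums was Cd68, which averaged 88.6 CPM in controls and 137 CPM with NET chromatin. Lyz2 averaged 1.95 and 8.67 CPM. The mast cell and basophil list, cells in which ST2 is abundant, summed to 5.68 to 6.32 CPM in controls and 4.04 to 5.39 CPM with NET chromatin, with Fcer1a, Ms4a2, Mcpt4 and Cd200r3 at 0 in all 6 libraries. The list for type 2 innate lymphoid and regulatory T cells summed to 27.8 to 35.2 and 33.4 to 42.2 CPM. Of its tested genes only Ikzf2 had a higher mean with NET chromatin, at 20.5 and 31.0 CPM. Gata3 (6.80 and 5.96 CPM), Foxp3 (1.35 and 0.985 CPM) and Rora (2.09 and 0.835 CPM) had lower means. The part of these cells' RNA in the differences of Il33 and Il1rl1 was not tested.

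Set per kilobase of exon sequence, the receptor exceeded the ligand in every culture, in every tumour library after laparotomy and in 1 PAD4 KO control library, and was below it in the other 3 tumour libraries. In control cultures Il1rl1 was at 14.5 ± 0.75 CPM per kb and Il33 at 0.135 ± 0.023 CPM per kb (SD, n = 3), and the ratio of receptor to ligand ran from 86.7 to 136 over the libraries. With NET chromatin the ratio was 13.7 to 16.9. In tumours it was 0.373 to 0.447 in WT control, 2.73 to 3.60 in WT laparotomy, 0.797 to 1.67 in PAD4 KO control and 1.16 to 5.03 in PAD4 KO laparotomy libraries. WT control tumours are thus the one group in which both libraries had more ligand than receptor transcript per kb. This order rests on merged exon lengths of 2.886 kb for Il33 and 6.894 kb for Il1rl1, and the counts do not show which transcripts were made. In CPM without lengths, Il1rl1 was above Il33 in WT control library 1 (265 and 248 CPM). It was below Il33 in WT control library 2 (327 and 367 CPM). The ratio of Il1rl1 to its co-receptor Il1rap per kb ran from 6.01 to 7.66 in control cultures, 39.0 to 41.1 with NET chromatin, and 12.9 to 56.4 over the tumours.

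Of 91 further pathway genes, 58 were tested in culture, and 21 were higher and 12 lower with NET chromatin (edgeR, adjusted p under 0.05), or 36.2% and 20.7% of those tested against 26.3% and 27.8% of all genes. Their median log2 fold change was 0.11, beside 0.00 for all genes. The remaining 33 did not pass the filter on low counts. Il1rn, Ccl3 and Ccl20 passed it through the NET libraries only, with a control mean under the filter's 0.951 CPM, so a higher mean there was set by the filter. Without such genes, 19 of 55 were higher and 12 lower, or 34.5% and 21.8%, against 26% and 27.8% of all genes treated the same way. With libraries scaled to their totals, 16 were higher and 19 lower.

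Of the IL-1 family ligands and antagonists, only 2 of 10 were tested, and Il1rn, the natural antagonist of the IL-1 receptor, was at 0.243 ± 0.14 CPM in controls and 6.49 ± 1.28 CPM with NET chromatin (SD, n = 3), given without a test since it passed the filter through the NET libraries. Il1a and Il1b, the classical IL-1 cytokines, did not pass the filter. The highest treated library had 1.68 CPM of Il1a and 0.505 CPM of Il1b. Of the 3 receptors tested among 8, Il18rap, the accessory chain of the IL-18 receptor, rose by 0.26 (adjusted p = 0.0201). Il1r1, the IL-1 receptor, fell by 0.52 (adjusted p = 0.00343), and Sigirr, a negative regulator of the family, fell by 0.27 (adjusted p = 0.0181).

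Of 34 signalling genes tested, 12 rose and 7 fell (35.3% and 20.6%), beside 26.3% and 27.8% of all genes. The smallest p among those that rose was that of Nfkbia, which encodes the NF-kB inhibitor IkBa and went from 142 ± 10.7 to 324 ± 31.7 CPM, or by 1.18 on the log2 scale (adjusted p = 6.34e-09). Nfkbiz, encoding a nuclear IkB protein, rose by 0.92 (adjusted p = 6.39e-07). Relb, a subunit of non-canonical NF-kB, fell by 0.95 (adjusted p = 7.16e-07), and Tab1, a partner of the kinase TAK1, fell by 0.81 (adjusted p = 9.09e-06). The signalling list held genes that moved both ways.

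Of 8 proteases tested, 1 rose and 3 fell (12.5% and 37.5%), beside 26.3% and 27.8% of all genes. Prtn3, the neutrophil serine protease proteinase 3, rose by 0.83, with 10.7 ± 1.74 CPM in controls and 19.2 ± 0.65 CPM with NET chromatin (adjusted p = 3.12e-05). Elane and Ctsg, the other neutrophil serine proteases known to cut IL-33, reached at most 0.0785 CPM and 0 CPM in any culture. Casp1, the inflammatory caspase, fell by 0.64 (adjusted p = 0.000170), and the calpain gene Capn2 fell by 0.27 (adjusted p = 0.00721).

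Of 11 tested cytokine and adhesion genes that IL-33 is known to induce, 2 passed the filter through the NET libraries only (Ccl3 and Ccl20). Of the other 9, 5 rose and 0 fell (55.6% and 0%), beside 26% and 27.8% of all genes treated the same way. Ptgs2, encoding the prostaglandin synthase COX-2, stood at 140 ± 3.63 CPM in controls and rose to 227 ± 5.89 CPM, by 0.70 on the log2 scale (adjusted p = 1.32e-07). Ccl3, a monocyte chemokine, was at 0.246 ± 0.16 CPM in controls and 4.09 ± 1.07 CPM with NET chromatin, given without a test. The pan-leukocyte and neutrophil sums were also higher with NET chromatin, but most of their tested genes passed the filter through the NET libraries only, as given above. The part of these cells in the differences was not tested.

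**Figure D2:**
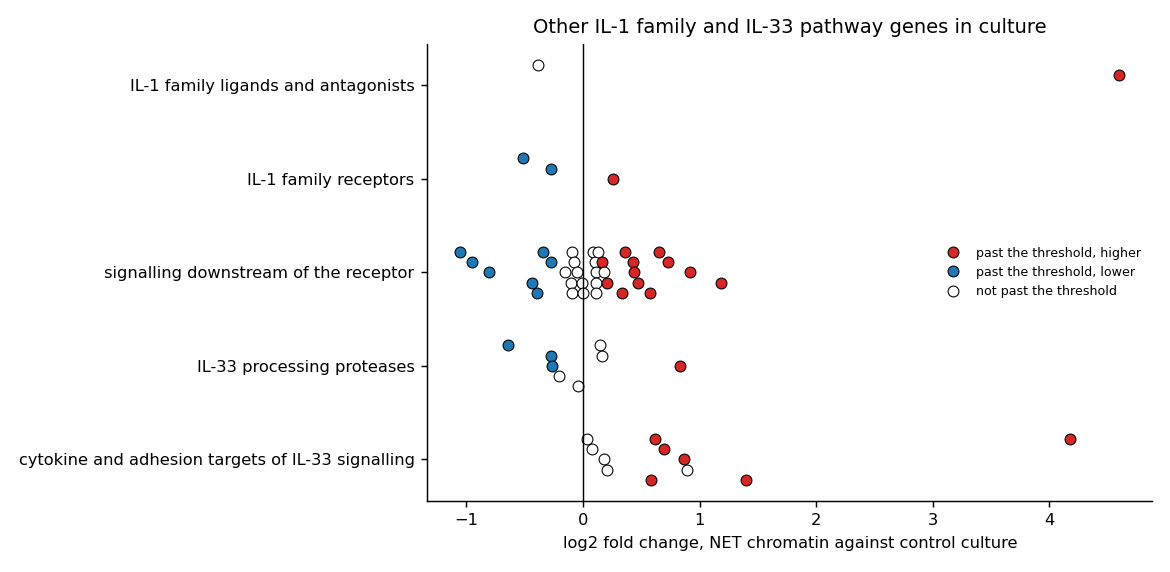
Log2 fold change with NET chromatin against control culture for the 58 tested pathway genes outside the 6 members, 1 point per gene and 1 row per list. Red and blue points passed an adjusted p of 0.05 (edgeR), 21 higher and 12 lower; the 2 points beyond 4 are Il1rn and Ccl3, both nearly at 0 in control cultures and past the low-count filter through the NET libraries only.

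Both ligand and receptor were present in all 8 tumour libraries. Il33 was at 248 and 367 CPM in WT control libraries 1 and 2, at 137 and 182 CPM in WT laparotomy, at 151 and 193 CPM in PAD4 KO control, and at 150 and 148 CPM in PAD4 KO laparotomy libraries. The WT control libraries were above all others. Scaled to library totals so that cultures and tumours could be set side by side, Il33 averaged 0.412 CPM in control cultures, 13.2 CPM with NET chromatin and 198 CPM over the 8 tumours (137 to 377 CPM). In increasing order the groups stood as control culture, NET culture, PAD4 KO laparotomy, WT laparotomy, PAD4 KO control and WT control, and the 3 groups from PAD4 KO laparotomy to PAD4 KO control overlapped with their neighbours.

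Cultured and sorted cells were fitted apart, and tumours also held host-cell RNA, so no test was made of that step. In bulk libraries, a higher share of cells of a type and more RNA per cell cannot be told apart. A fibroblast list of 9 genes summed to 113 to 166 CPM in cultures and 1831 to 4798 CPM in tumours. WT laparotomy libraries, with Il33 at 137 and 182 CPM, had lung epithelium markers at 18.6 and 28.9 CPM in sum. That is below the 30.3 to 39.7 CPM of the same list in the cultures, most of which was Rtkn2 and Hopx. Rtkn2 averaged 21.7 CPM without and 15.4 CPM with NET chromatin, and Hopx 14.9 and 13.9 CPM. In the WT laparotomy libraries Rtkn2 was at 1.35 and 1.42 CPM and Hopx at 5.62 and 4.06 CPM. Sftpc was at 1.87 and 5.32 CPM there, and Scgb1a1 at 2.14 and 5.64 CPM. In any culture, Sftpc and Scgb1a1 reached at most 0.102 and 0.0785 CPM. WT laparotomy libraries had endothelium markers at 65.0 and 61.3 CPM and fibroblast markers at 2329 and 1831 CPM. The part of any of these cells in the Il33 level was not tested.

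Il1rl1 had another order. It was at 265 and 327 CPM in WT control, 1174 and 1186 CPM in WT laparotomy, 601 and 368 CPM in PAD4 KO control, and 416 and 1783 CPM in PAD4 KO laparotomy libraries. The WT laparotomy pair was tight, while 1 PAD4 KO laparotomy library lay between the PAD4 KO controls and the other above every tumour library. Scaled to library totals, the groups rose from control culture (106 CPM) over WT control (302 CPM), PAD4 KO control (479 CPM), NET culture (480 CPM) and PAD4 KO laparotomy (1069 CPM) to WT laparotomy (1191 CPM). Control culture and WT control stood clear of their neighbours, and from PAD4 KO control upward each group overlapped the next.

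The 4.28-fold difference between the PAD4 KO laparotomy libraries was larger than that of 99.6% of the 10547 genes with a mean of at least 5 CPM in tumours, whose median was 1.16-fold. In the same pair, Il33 differed 1.01-fold and Il1rap 1.42-fold, at 42.5 and 60.6 CPM. Their mast cell and basophil list summed to 40.4 and 34.5 CPM. Of that list, Cpa3, Fcer1a, Ms4a2 and Mcpt8 were at 0 in both libraries and Kit was at 3.83 and 7.35 CPM. Their pan-leukocyte list summed to 185 and 131 CPM, and their T and NK cell list to 2.35 and 17.7 CPM. Their list for type 2 innate lymphoid and regulatory T cells summed to 28.5 and 27.3 CPM.

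The remaining members varied less across the tumours. Il1rap was at 28.1 and 41.9 CPM in WT control, 45.1 and 34.7 CPM in WT laparotomy, and 32.0 and 37.1 CPM in PAD4 KO control libraries. Myd88 was at 92.1 and 99.3, 63.3 and 66.9, 83.3 and 90.8, and 88.6 and 80.2 CPM in the 4 groups in the order used above, with WT laparotomy lowest. Irak4 was at 38.0 and 39.7, 22.8 and 30.7, 32.2 and 31.1, and 35.0 and 30.5 CPM, again with WT laparotomy lowest and WT control highest. Traf6 ran from 35.5 to 48.0 CPM, and its 4 tumour groups each overlapped the next. On library totals, Il1rap, Myd88 and Irak4 were lower in every culture than in every tumour library. Traf6, at 42.0 to 51.1 CPM in control cultures and 34.4 to 48.2 CPM in tumours, was the exception.

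**Figure D3:**
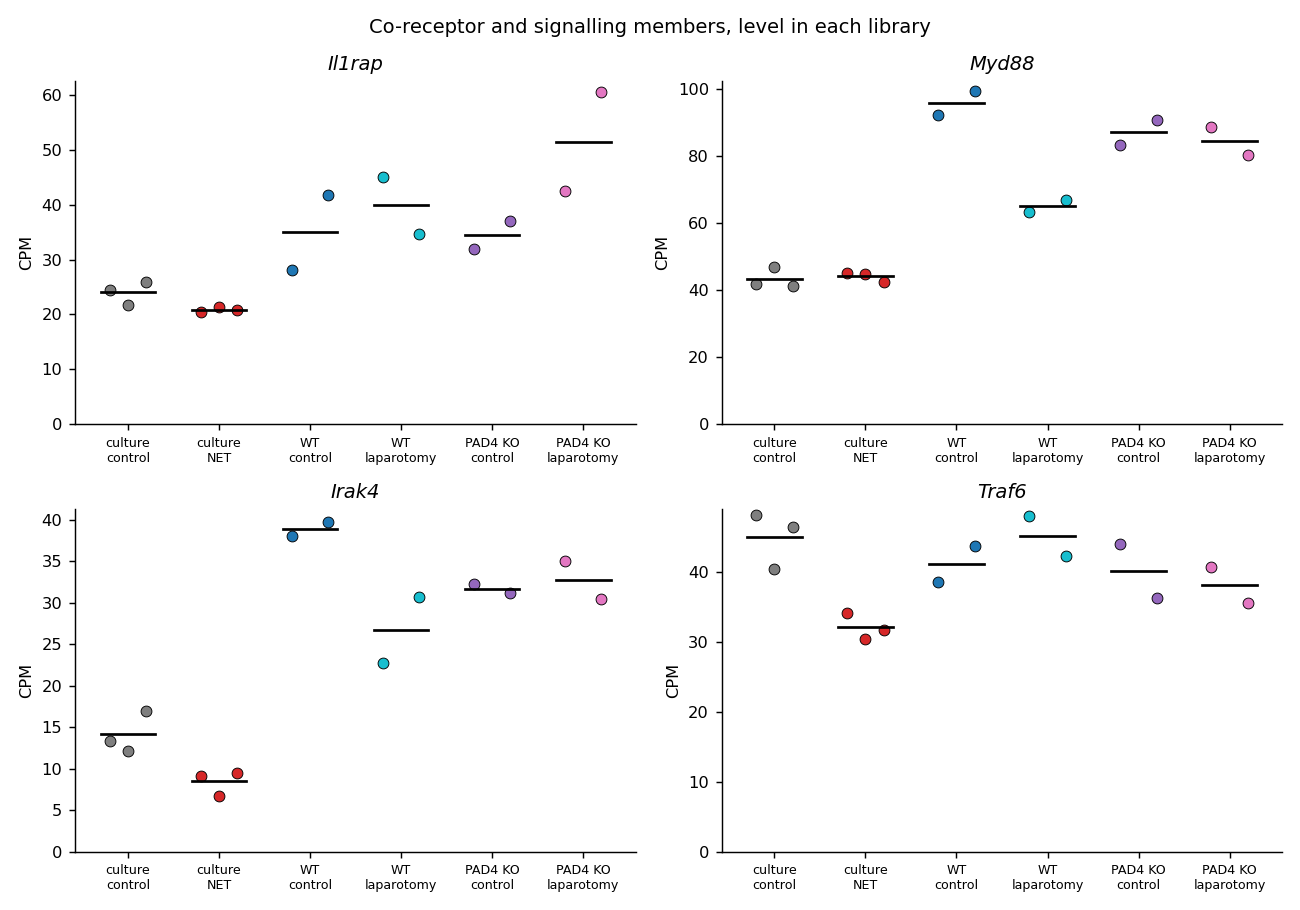
Level of Il1rap, Myd88, Irak4 and Traf6 in each of the 14 libraries, in CPM on axes that start at 0; points are libraries and bars are group means. Irak4 and Traf6 were lowest with NET chromatin, at 6.74 to 9.49 and 30.3 to 34.2 CPM, and Myd88 was lowest among tumours after laparotomy in WT hosts, at 63.3 and 66.9 CPM.

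Laparotomy in WT hosts was compared with WT control tumours to ask what surgery does to the tumour cells. The receptor was higher after laparotomy and the ligand lower, but none of the 6 members passed the threshold in the joint fit of 8 tumour libraries (edgeR), in which 0.0547% of 14615 genes did. At an unadjusted p under 0.05 there were 4 members, beside 2753 (18.8%) of all genes. For Il33 the log2 fold change ± SE was -0.95 ± 0.22 (adjusted p = 0.135), with a mean of 159 CPM after laparotomy against 307 CPM without. Il1rl1 had a log2 fold change of 1.99 ± 0.66 (adjusted p = 0.200), or 3.98-fold, with both laparotomy libraries above both controls.

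The adaptor Myd88 had a log2 fold change of -0.56 ± 0.11 (adjusted p = 0.120) and the kinase Irak4 one of -0.54 ± 0.17 (adjusted p = 0.171). Traf6 (log2 fold change 0.13) and Il1rap (0.18) had groups that overlapped. The groups of the other 4 members did not overlap, nor did those of 57.3% of all genes tested. DESeq2 called 3 members, Il33 (adjusted p = 0.000647), Myd88 (0.00207) and Il1rl1 (0.0482), and 8.42% of all genes. The edgeR fit over all 14 libraries called the same 3 (0.0107, 0.00796 and 0.0394) and 10.1% of all genes, and a fit of these groups alone called Il1rl1 (0.0382) among 14 genes.

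The size of the Il33 difference depended on the WT control libraries. Without WT control library 1 it was -1.20 (adjusted p = 0.0243, with 512 of all genes called), and without WT control library 2, the one richest in lung epithelium and leukocyte markers, it was -0.64 (adjusted p = 0.339). Il1rl1 kept a log2 fold change between 1.85 and 2.16 when any one library was left out, with an adjusted p under the threshold only without PAD4 KO laparotomy library 1 (0.0490, with 31 of all genes called). The neutrophil list was at 53.6 and 598 CPM in WT control and 7.28 and 5.10 CPM in WT laparotomy libraries; the part of host cells in the Il33 difference was not tested.

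In PAD4 KO hosts, laparotomy gave no member past the threshold, beside 0.52% of all genes. The count at an unadjusted p under 0.05 was 1 member and 2293 (15.7%) of all genes. DESeq2 called 0 members and 5.36% of all genes, and the fit over 14 libraries 0 members and 7.85%. Il1rl1 had a log2 fold change of 1.18 ± 0.64 (adjusted p = 0.445), which was -0.23 without PAD4 KO laparotomy library 2 and 1.87 without library 1 (adjusted p = 0.0544). Il33 differed by -0.20 ± 0.22 (adjusted p = 0.708) and Il1rap, the member with the smallest p, by 0.58 ± 0.25 (adjusted p = 0.308). Of the 6 members, 2 had groups that did not overlap, Il33 and Il1rap, beside 42.1% of all genes.

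The difference between these laparotomy effects was tested as an interaction, and no member passed, beside 0.677% of all genes. At an unadjusted p under 0.05 there were 3 members and 2803 (19.2%) of all genes, and DESeq2 called 0 members and 7.98% of all genes. For Il33 the effect in PAD4 KO hosts was higher by 0.75 ± 0.30 (adjusted p = 0.236), for Myd88 by 0.51 ± 0.16 (adjusted p = 0.145) and for Irak4 by 0.59 ± 0.24 (adjusted p = 0.232). For Il1rl1 it was -0.81 ± 0.90 (95% interval -3.02 to 1.39, adjusted p = 0.669), an interval that holds both equal effects and an effect several log2 units apart. The fit over all 14 libraries called Myd88 (adjusted p = 0.0325) and 11.1% of all genes.

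Host genotype was then compared at each surgical state; the comparison without laparotomy uses the WT control libraries of the WT laparotomy comparison too. Without laparotomy, 0 of 6 members passed (edgeR), beside 0.116% of all genes, with 1 member and 2388 (16.3%) of all genes at an unadjusted p under 0.05. That member was Il33, lower in PAD4 KO hosts by -0.84 ± 0.22 (adjusted p = 0.161). It was called by DESeq2 (adjusted p = 0.00537, beside 5.68% of all genes), by the fit over 14 libraries (0.0180, beside 7.25%) and without WT control library 1 (0.0475, beside 218 genes), and was -0.53 (adjusted p = 0.392) without WT control library 2. Il1rl1 differed by 0.71 ± 0.64 (adjusted p = 0.631). The groups did not overlap for 4 of the 6 members and for 44.4% of all genes.

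After laparotomy, 0 of 6 members passed, beside 0.0205% of all genes, with 1 member and 1954 (13.4%) of all genes at an unadjusted p under 0.05. Myd88 was that member, higher in PAD4 KO hosts by 0.37 ± 0.11 (adjusted p = 0.230), and the fit over 14 libraries called it (0.0440) and 4.94% of all genes, while DESeq2 called 0 members and 4.29% of all genes. Il33 differed by -0.09 ± 0.22 (95% interval -0.59 to 0.40) and Il1rl1 by -0.10 ± 0.63 (95% interval -1.66 to 1.45). The groups did not overlap for 2 members and for 52.3% of all genes.

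**Figure D4:**
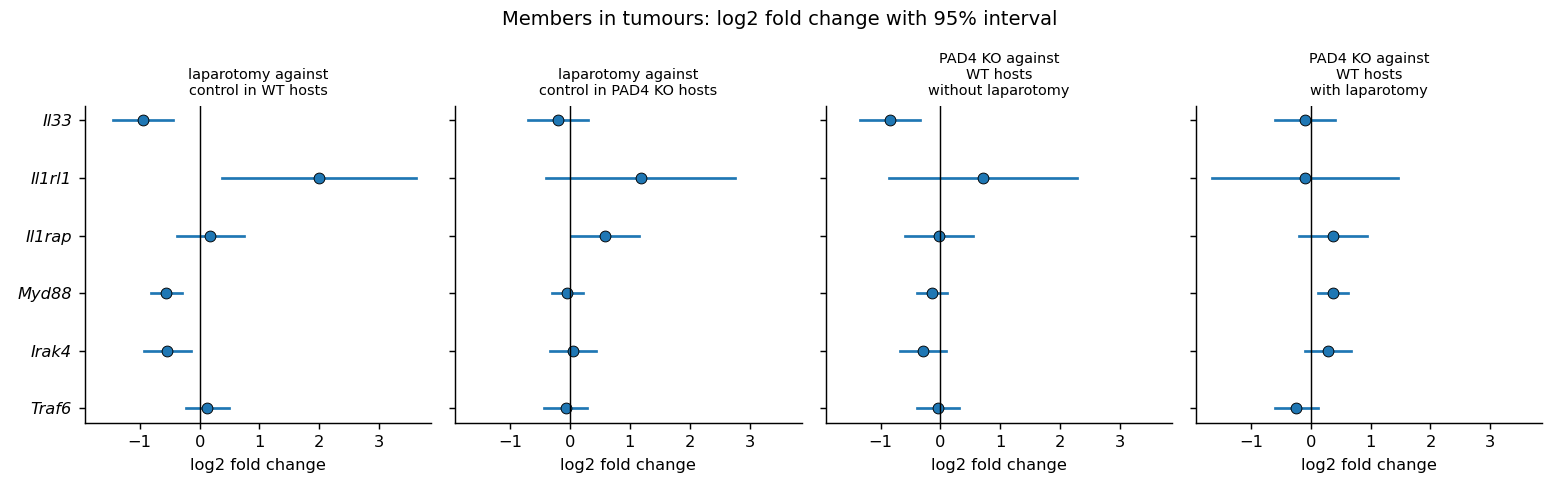
Log2 fold change of the 6 members in 4 tumour comparisons (points) with 95% intervals from the edgeR quasi-likelihood fit (lines); 0 marks no difference. No member passed the adjusted threshold, and Il1rl1 has the widest intervals, from 0.38 to 3.61 for laparotomy in WT hosts.

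**Figure D5:**
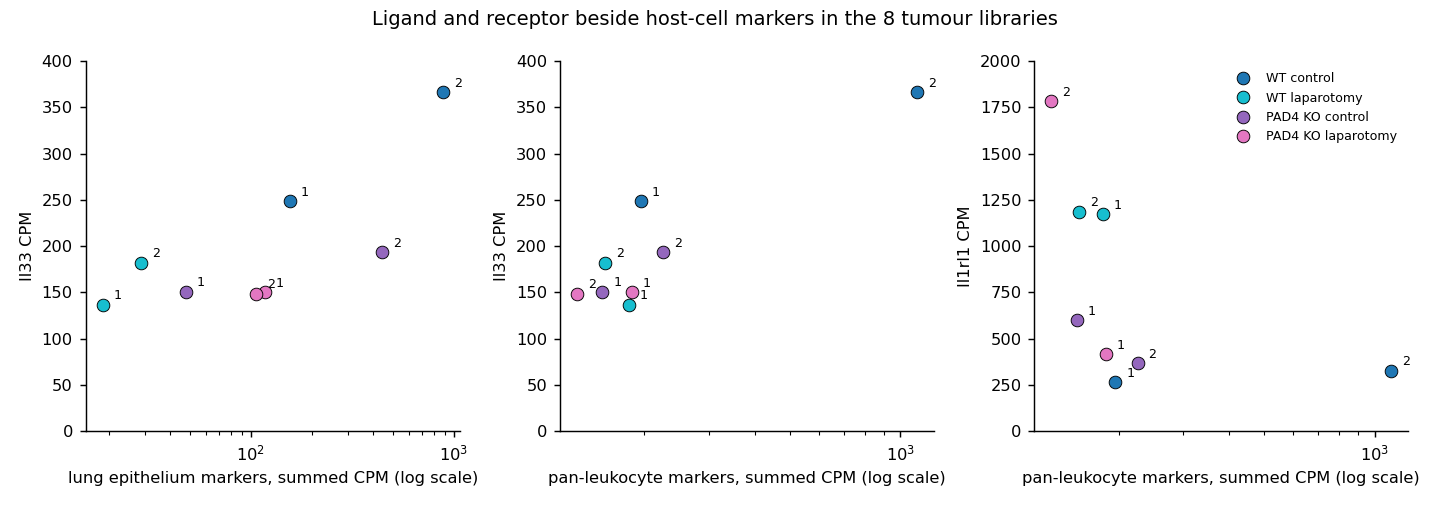
Il33 (left and middle) and Il1rl1 (right) in CPM against the summed CPM of lung epithelium or pan-leukocyte markers on a log axis, for the 8 tumour libraries, with the library number beside each point. WT control library 2 has the highest Il33 (367 CPM) and the highest marker sums (882 and 1112 CPM). Il1rl1 was highest in PAD4 KO laparotomy library 2 and both WT laparotomy libraries, with pan-leukocyte sums of 131, 181 and 156 CPM. Their T and NK cell list (not drawn) summed to 17.7, 29.6 and 26.8 CPM. The T and NK cell list was at 73.7 CPM in WT control library 2 and 2.35 to 11.4 CPM in the other tumour libraries. The list for type 2 innate lymphoid and regulatory T cells (not drawn) was at 27.3 CPM in PAD4 KO laparotomy library 2. It was at 44.7 and 34.4 CPM in the WT laparotomy libraries and 24.8 to 70.3 CPM in the other tumour libraries. The part of these cells in the Il1rl1 level was not tested.

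Few other genes of the pathway passed in tumours. Of 73 tested, 0 passed for laparotomy in WT hosts, 3 (4.11%) for laparotomy in PAD4 KO hosts and 0 for the difference (edgeR). For host genotype, 0 passed without laparotomy and 0 with it. Of all genes, 0.0547%, 0.52%, 0.677%, 0.116% and 0.0205% passed in these comparisons, in that order. The counts at an unadjusted p under 0.05 were 23, 16, 17, 21 and 16 of the 73, beside 18.8%, 15.7%, 19.2%, 16.3% and 13.4% of all genes. DESeq2 called 12, 9, 9, 7 and 6, beside 8.42%, 5.36%, 7.98%, 5.68% and 4.29% of all genes. Il1r1, the receptor of IL-1, was at 28.8 and 33.9 CPM in PAD4 KO control and 67.8 and 90.8 CPM in PAD4 KO laparotomy libraries, a log2 fold change of 1.34 ± 0.18 (adjusted p = 0.0319). In WT hosts it differed by -0.05 ± 0.17, and the difference of the effects was 1.38 ± 0.25 (adjusted p = 0.0545).

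Areg, an epidermal growth factor family ligand made downstream of ST2 in lymphoid cells, was at 6.65 and 8.26 CPM in PAD4 KO control and 27.2 and 18.8 CPM in PAD4 KO laparotomy libraries (log2 fold change 1.63 ± 0.25, adjusted p = 0.0410). In WT hosts it had a log2 fold change of 1.03 ± 0.25 (adjusted p = 0.136). Ptgs2 was at 142 and 196 CPM against 797 and 1821 CPM (2.95 ± 0.40, adjusted p = 0.0431), and its value in WT hosts was 1.06 ± 0.38 (adjusted p = 0.209). These 3 calls did not hold with every library left out: without PAD4 KO laparotomy library 2, PAD4 KO control library 1 or either WT laparotomy library, 0 pathway genes passed, and without PAD4 KO control library 2, 1 did. The cause was not tested. The monocyte and macrophage list summed to 107 and 286 CPM in PAD4 KO control and 442 and 263 CPM in PAD4 KO laparotomy libraries, and its part in these differences was not tested.

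In the comparisons in which no pathway gene passed, the gene with the smallest p differed from one comparison to the next. For laparotomy in WT hosts it was that of Irak2, a kinase of the receptor complex, at 23.6 ± 7.73 CPM (SD, n = 2) in controls and 10.7 ± 0.86 CPM after laparotomy (adjusted p = 0.135). For genotype without laparotomy it was that of Il1r1, at 55.9 ± 0.055 CPM in WT and 31.4 ± 3.63 CPM in PAD4 KO hosts (adjusted p = 0.110). For genotype with laparotomy it was that of Nfkbie, encoding the inhibitor IkBe, at 21.8 ± 0.18 and 35.4 ± 2.98 CPM (adjusted p = 0.111).

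Genes with the pattern most like that of each of the 2 leading members were taken by the root mean square difference of log2(CPM + 1), each gene centred on its own mean. Over the 14 libraries and 11258 genes, those nearest to Il33 were Sema7a (0.83), Tmsb4x, Srgn, Arhgdib and Ston2 (1.06), against a median of 2.90 over all genes. Sema7a, a membrane-anchored semaphorin, was at 0.572 to 1.38 CPM in control cultures, 3.13 to 4.12 CPM with NET chromatin and 60.5 to 126 CPM in tumours. Those nearest to Il1rl1 were Nfkbia (0.70), Myb, Acsbg1, Gja1 and Rnf11 (0.79), against a median of 1.32. All 14 points share the step from culture to sorted tumour.

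Over the 8 tumour libraries and 11340 genes, the nearest to Il33 were Mcf2l (0.18), Ece1, Rassf3, Adamts10 and Cnp (0.21), against a median of 0.51. Ece1, the endothelin-converting enzyme, was at 66.5 CPM in WT control library 2 and at 19.4 to 36.1 CPM in the other 7. The nearest to Il1rl1 were Styk1 (0.31), Cited2, Myb, Gpr149 and Slit2 (0.48), against a median of 0.96. Myb, the haematopoietic and epithelial progenitor transcription factor, followed the split between PAD4 KO laparotomy libraries, at 0.664 and 6.59 CPM, and stood at 8.18 and 6.81 CPM in WT laparotomy libraries. Styk1, a receptor-like kinase, was at 7.18 and 20.4 CPM in the PAD4 KO laparotomy pair and 16.3 and 14.3 CPM in the WT laparotomy pair. Both were chosen for their likeness to Il1rl1 over these libraries, so the shared split is a description. With a pseudocount of 0.5 in place of 1, 3 of the 5 genes remained (Styk1, Cited2 and Slit2), as did 3 of 5 for Il33 and 4 of 5 for Il1rl1 over 14 libraries, and 5 of 5 for Il33 in tumours.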

How the data were processed

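RNA of MC-38 cells was sequenced in 14 libraries, and the authors deposited read counts per gene for each. Per the submitters' processing notes, Trimmomatic and STAR were used with the mouse build mm10; no source at hand states versions, options or the annotation counted on. Each table holds 24411 symbols, an unstranded and 2 strand-specific columns, and 4 summary lines that name no gene. Those lines, 25.2 to 45.3% of all reads, entered neither library sizes nor tests. The unstranded counts were used, which do not separate a gene from an overlapping or antisense one. The first-strand column held 1.09 to 1.20% of strand-specific counts.

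The main test was that of edgeR 4.0.16, run in R 4.3.3 (filterByExpr with the groups, TMM factors, robust quasi-likelihood fit and test), with Benjamini-Hochberg adjustment over all genes tested called at 0.05. One fit held the culture libraries and another the tumour libraries. Standard errors come from the quasi-likelihood statistic, and 95% intervals from its degrees of freedom. Levels are CPM with the TMM factors of their fit, or with library totals where cultures and tumours are set side by side, and per kb of merged exons (GENCODE, GRCm38) where genes are compared. Promoter sequences are RefSeq's. DESeq2 1.42.0 was an alternative beside others in scaling, filter, strand, libraries fitted, replicate block and left-out libraries. The scripts were tested on simulated data.

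All 6 members are named. Of each pathway list, the 2 higher and 2 lower genes with the smallest p among those called are named in each comparison, otherwise the gene with the smallest p may be. Elane, Ctsg, Il1a and Il1b are named for their roles. The members and lists were chosen with earlier results of these data known. Replicates of a group differed by more than sampling noise. Replicate numbers are not stated to pair libraries, and same-numbered libraries did not deviate together in every pair, in cultures or in tumours.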

Additional observations from a re-analysis of the deposited data

How the results depend on the processing

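Of 474 fold changes of members in tumours recomputed under other settings, 446 kept their direction and side of the threshold, 14 turned and 14 came past the threshold. In culture, Myd88 turned to -0.14 with library totals and to between -0.017 and 0.082 with 1 library left out, and the count of lower pathway genes moved from 12 to 19 with library totals. With 1 library left out, the fold changes that turned ran as follows. For laparotomy in WT hosts, Il1rap ran from -0.068 to 0.51. For laparotomy in PAD4 KO hosts, Il1rl1 ran from -0.23 to 1.87, Myd88 from -0.13 to 0.019, Irak4 from -0.067 to 0.13 and Traf6 from -0.21 to 0.079. For genotype without laparotomy, Il1rap ran from -0.26 to 0.29 and Traf6 from -0.19 to 0.098, and for genotype with laparotomy Il33 ran from -0.29 to 0.13 and Il1rl1 from -1.51 to 0.60. Members called for laparotomy in WT hosts numbered 3 with DESeq2 and with all 14 libraries in the fit, 1 with the compared groups alone, and 0 to 1 with a library left out. With all 14 libraries, 1 member was called in the difference, 1 in genotype without laparotomy and 1 in genotype with laparotomy; DESeq2 called 1 in genotype without laparotomy, where leaving out a library gave 0 to 1. Pathway genes called for laparotomy in WT hosts numbered 1 with no filter, 12 with DESeq2, 12 with all 14 libraries and 0 to 8 with a library left out. For laparotomy in PAD4 KO hosts they numbered 9 with DESeq2, 9 with all 14 libraries, 1 with the compared groups alone and 0 to 4 with a library left out. For the difference they numbered 2 with no filter, 9 with DESeq2, 11 with all 14 libraries and 0 to 6 with a library left out. For genotype without laparotomy they numbered 1 with no filter, 7 with DESeq2, 9 with all 14 libraries and 0 to 3 with a library left out, and for genotype with laparotomy 6 with DESeq2, 7 with all 14 libraries and 0 to 1. The cause of these changes was not tested. Over all genes, DESeq2 called 8.42%, 5.36%, 7.98%, 5.68% and 4.29% in these comparisons, in that order. The fit over all 14 libraries called 10.1%, 7.85%, 11.1%, 7.25% and 4.94%. No share of all genes is given beside the pathway counts with no filter, the compared groups alone or a library left out. Nothing about the pathway is read from those counts. With the replicate block, 20 pathway genes were higher and 12 lower in culture, and 1 was called for laparotomy in PAD4 KO hosts in place of 3. Same-numbered culture libraries had correlations of deviations of 0.090, 0.094 and -0.026. In tumours, same-numbered WT control and PAD4 KO control libraries had 0.36, and the other pairs of groups -0.12 to 0.075. Signs differed from pair to pair and no label states pairing, so the numbers were not taken as pairs. Counts over all genes moved far more in tumours, from 0 to 1450 for laparotomy in WT hosts and from 0 to 1132 in PAD4 KO hosts over the alternatives. With 2 libraries a group, and 3 to 6 counts of Il33 in each control culture, precision is limited in both settings.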
